A study of Mus musculus with 12 samples.

Results

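Chemokine ligands are small secreted proteins that direct the movement of leukocytes, and 9 of them were followed here: Ccl3, Ccl4, Ccl5, Ccl6, Ccl9, Cxcl9, Cxcl10, Cxcl16 and Xcl1. They were taken by name as 9 of the 16094 named genes in the expression table, and their levels were read over every annotated cell type of the spleen. Chemokines bind receptors that signal through G proteins, and cells with the matching receptor move up the gradient that results. Lymphocytes that have been activated and NK cells are known sources of Ccl3, Ccl4, Ccl5 and Xcl1, while interferon-gamma induces Cxcl9 and Cxcl10 and myeloid cells are known for Ccl6 and Ccl9. The receptors differ by ligand, for example Cxcr3 for Cxcl9 and Cxcl10, Ccr1 for Ccl6 and Ccl9, Cxcr6 for Cxcl16, and Xcr1 for Xcl1.

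The spleens of 4 male mice were profiled by droplet single-cell RNA sequencing after magnetic enrichment of CD45+ cells, CD45 being a surface protein of all white blood cells. Of these, 2 were C57BL/6 mice labelled WT and 2 were B6.Sle1yaa mice labelled SLE.yaa, a lupus-prone strain that by background joins the Sle1 interval of chromosome 1 with the Yaa translocation of an X-linked segment that holds Tlr7 to the Y chromosome. T and B cell receptor libraries were made from the same mice. The groups were written under a label that speaks of chimeras, and it is unclear from the sources used here if the mice were bone marrow chimeras. The deposited metadata give an age of 14.4 for both WT mice and of 14.9 for both SLE.yaa mice, with no unit, so age and genotype cannot be told apart over that gap. A magnetic enrichment cannot return the true share of each cell type in the spleen.

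The table held 22285 cells, 5497 and 5697 from WT 1 and WT 2 and 4961 and 6130 from SLE.yaa 1 and SLE.yaa 2. The median number of unique molecules per cell (UMIs) was 3467 and 3670 in the WT mice and 4695 and 4050 in the SLE.yaa mice. Cell barcodes shared between libraries numbered 256, and they were kept. The authors named 12 types, and 9 of them had at least 20 cells in every mouse and could be tested: B cells, B cells with an interferon signature (B-ISG), early B cells, CD4 T cells, CD8 T cells, NK cells, neutrophils, and the types labelled Mac and DC. Basophils, plasma cells and plasmacytoid cells were too few for a test. Cells labelled Mac carried monocyte markers: the 8 listed ones summed to between 13121 and 21898 vpm (defined below), against 203 to 312 for the 10 listed macrophage markers. Cells labelled DC went against their label in the SLE.yaa mice. There, 79.2% and 73.4% held 3 or more of those 10 macrophage markers (C1qa, Vcam1, Mertk and others), against 5.19% and 12.2% in the WT mice. That label is therefore kept below only as the name of the annotated type.

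Promoter sequences are shown first for the ligands whose patterns are set side by side below. RefSeq (GRCm38.p6) gave promoters for 6 of the 9 members, and 4 are printed: Cxcl10, which was called in more than 1 cell type, Cxcl9, its neighbour on chromosome 5 with the same receptor, and the adjacent pair Ccl6 and Ccl9 on chromosome 11. Each run is the 250 bases before the annotated start, 5′ to 3′ on the minus strand that carries the gene: chr5:92348890-92349139 for Cxcl10, chr5:92328080-92328329 for Cxcl9, chr11:83593088-83593337 for Ccl6 and chr11:83578637-83578886 for Ccl9. Capitals mark every match on either strand to 2 copies of GAAA with 2 free bases between (the core of the interferon-stimulated response element, ISRE), TTCNNNGAA (the interferon-gamma-activated site), GGGA and CC with 4 free bases between (NF-kappaB), TTGCNNAA (C/EBP), GAGGAAGT (PU.1), TGANTCA (AP-1) or TCACACCT (T-box).
Cxcl10: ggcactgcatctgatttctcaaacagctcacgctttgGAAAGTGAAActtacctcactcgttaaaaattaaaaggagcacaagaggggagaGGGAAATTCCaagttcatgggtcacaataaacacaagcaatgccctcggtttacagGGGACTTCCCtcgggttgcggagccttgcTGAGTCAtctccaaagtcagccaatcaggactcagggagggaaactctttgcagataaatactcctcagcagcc
Cxcl9: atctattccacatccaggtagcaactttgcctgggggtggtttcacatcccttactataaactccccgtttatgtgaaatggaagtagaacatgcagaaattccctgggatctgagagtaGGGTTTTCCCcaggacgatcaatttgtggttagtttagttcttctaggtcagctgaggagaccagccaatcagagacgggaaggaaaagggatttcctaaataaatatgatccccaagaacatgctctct
Ccl6: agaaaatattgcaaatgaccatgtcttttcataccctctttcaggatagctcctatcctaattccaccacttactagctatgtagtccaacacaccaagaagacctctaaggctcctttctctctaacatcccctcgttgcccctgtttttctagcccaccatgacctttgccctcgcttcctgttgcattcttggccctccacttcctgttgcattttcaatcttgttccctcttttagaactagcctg
Ccl9: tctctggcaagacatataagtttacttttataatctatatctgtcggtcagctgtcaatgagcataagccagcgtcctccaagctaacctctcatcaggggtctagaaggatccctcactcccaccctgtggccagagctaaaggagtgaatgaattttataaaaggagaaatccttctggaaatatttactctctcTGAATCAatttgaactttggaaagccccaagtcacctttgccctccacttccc

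The Cxcl10 run held 1 match to the ISRE core, 213 to 204 bases before the start, a motif that 3.04% of 27025 promoter windows of this length held. It also held 2 matches to the NF-kappaB letters, at 159 to 150 and 103 to 94 bases, a motif present in 17.3% of the windows. A match to TGANTCA, present in 6.87% of the windows, lay 74 to 68 bases before the start. Cxcl9 held 1 match to the NF-kappaB letters, on the opposite strand at 130 to 121 bases. The Ccl9 run held 1 match to TGANTCA at 53 to 47 bases, and the windows of Ccl6, Ccl3 and Xcl1 held none of the 7 motifs. TTCNNNGAA, TTGCNNAA, GAGGAAGT and TCACACCT, which matched none of the 6 members, were present in 7.18%, 9.55%, 2.44% and 1.14% of the windows. These are matches of letters and say nothing of binding.

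The genes themselves lay in 4 places of GRCm38. Ccl5 (chr11:83525778-83530518), Ccl9 (chr11:83572917-83578636), Ccl6 (chr11:83587886-83593087), Ccl3 (chr11:83647843-83649378) and Ccl4 (chr11:83648624-83664683) stood in 1 cluster on chromosome 11. Cxcl16 (chr11:70454389-70459984) lay apart on the same chromosome, Cxcl9 (chr5:92321331-92328079) and Cxcl10 (chr5:92346638-92348889) stood side by side on chromosome 5, and Xcl1 (chr1:164931644-164935522) was on chromosome 1. The RefSeq span of Ccl4 overlaps Ccl3. The use of strand in counting was not given in the sources used here, so a split of reads between these 2 genes is uncertain.

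Levels are given in vpm: the mean of the deposited depth-adjusted values over the cells of a type in a mouse, scaled so that all genes sum to 1000000. Where 4 values follow each other they are for WT 1, WT 2, SLE.yaa 1 and SLE.yaa 2. Differences between SLE.yaa and WT are log2 differences of vpm plus a pseudocount of 10, with their standard error (SE) and an adjusted p from limma over all genes tested in that type, 2 mice against 2, called at 0.05. The pseudocount makes the differences of low genes smaller than their true size. A gene was tested where at least 2 mice reached 10 vpm, so a gene that passed through the SLE.yaa mice alone had to differ. The 9 members over 9 testable types gave 81 pairs, of which 31 passed that filter, 11 were called higher in SLE.yaa and 2 lower. Of the 11, 5 had passed the filter through SLE.yaa alone, and the share of all genes called is given with each type. The exact permutation test of 2 mice against 2 cannot go below a two-sided p of 0.333 for a single value, so each call rests on the spread that limma shares between genes.

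**Figure D1:**
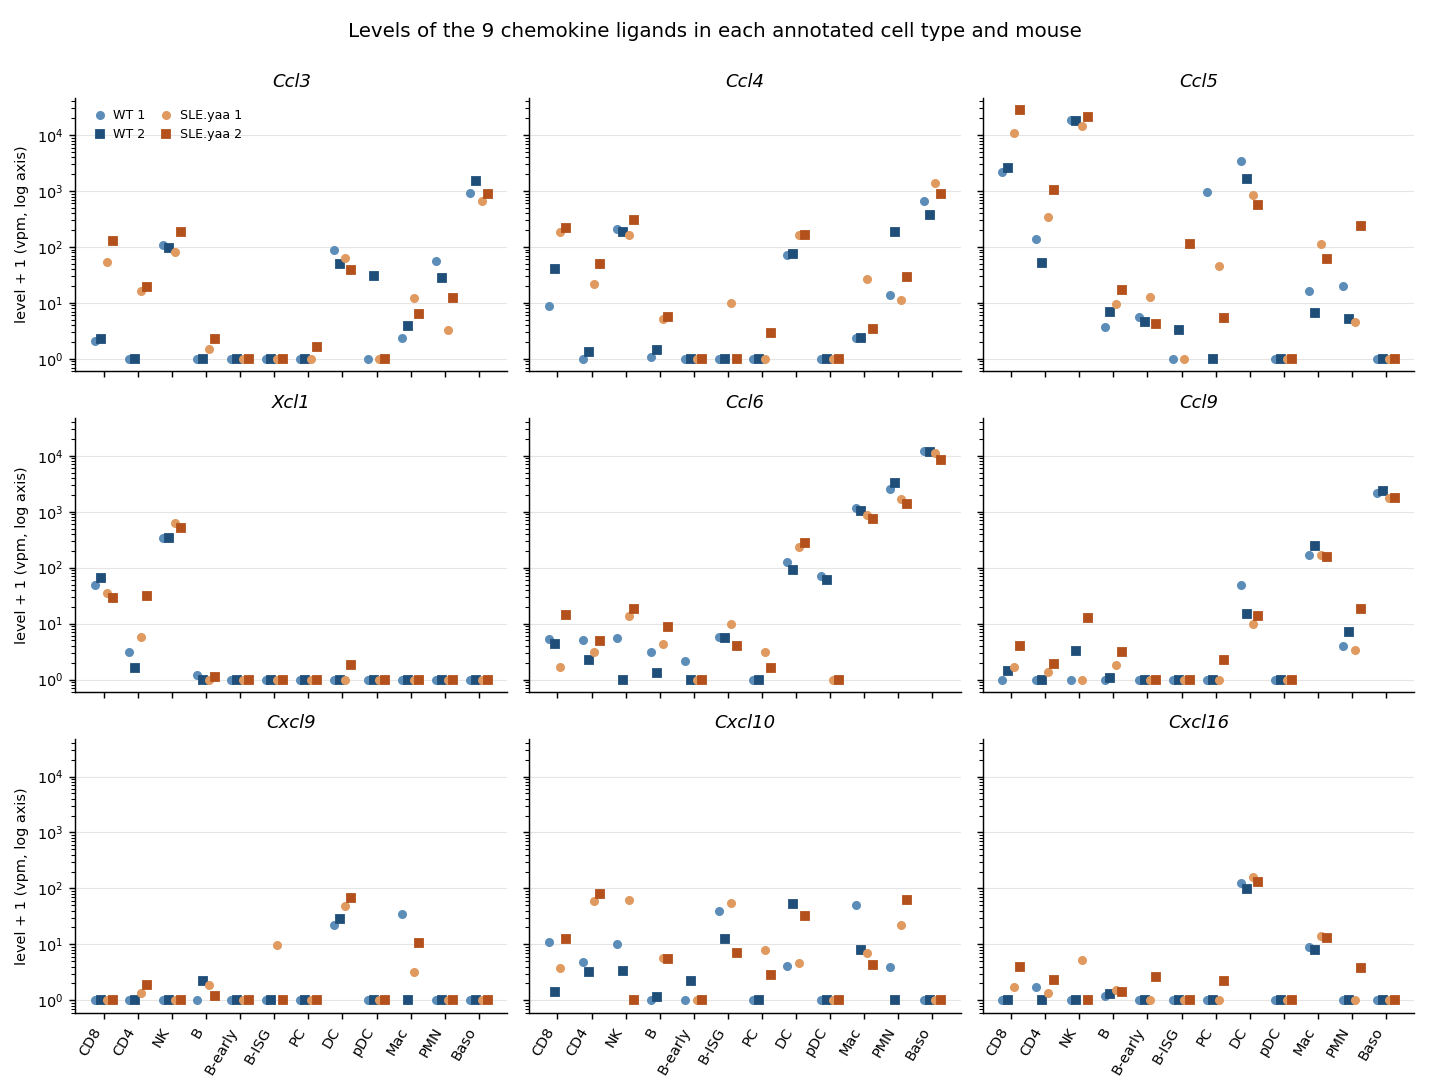
Level of each ligand (vpm plus 1, log axis) in each annotated cell type, 1 point per mouse, WT and SLE.yaa in separate colours. By the mean over mice, basophils sit highest for Ccl3, Ccl4, Ccl6 and Ccl9, NK cells for Ccl5 and Xcl1, and DC for Cxcl9 and Cxcl16. The CD8 points of Ccl5 part into 2207 and 2637 for WT and 11038 and 28043 for SLE.yaa.

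The plot of levels by type shows that each ligand had its own leading cells. Basophils, with 26 cells in all, had the highest mean level of 4 ligands. Ccl3 averaged 992 vpm there, above NK cells at 117, and NK cells, DC at 59.3 and CD8 T cells at 45.7 overlapped in their ranges over mice. Ccl4 averaged 828 in basophils, and NK cells at 216, DC at 119 and CD8 T cells at 112 again overlapped. Ccl6 fell in steps with no overlap between neighbours, from 10989 in basophils to 2213 in neutrophils, 944 in Mac and 179 in DC. Ccl9 stood at 2008 in basophils and 185 in Mac, also without overlap, and at 21.0 in DC.

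Lymphocytes led for Ccl5 and Xcl1. NK cells averaged 17999 vpm of Ccl5, and CD8 T cells at 10981 overlapped them, since CD8 T cells of SLE.yaa 2 (28043) lay above every NK value. DC (1615) and CD4 T cells (393) followed, each overlapping the type before it. Xcl1, the ligand of the receptor Xcr1 on cross-presenting dendritic cells, averaged 448 in NK cells, with no overlap with CD8 T cells at 43.5, which did overlap CD4 T cells at 9.59. Cxcl16, a ligand made as a membrane protein and shed by the protease Adam10, averaged 128 in DC and 9.95 in Mac with no overlap. Cxcl9 averaged 40.6 in DC and 11.3 in Mac, and their ranges overlapped. For Cxcl10 the order could not be read: CD4 T cells (35.7), B-ISG cells (27.3), DC (22.4) and neutrophils (21.4) all overlapped.

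CD8 T cells of the SLE.yaa mice carried more Ccl3, Ccl4 and Ccl5. Of the 9 members, 4 were tested in these cells, 3 were called higher and none lower, where 3.15% of all genes tested were called, 2.5% higher and 0.652% lower. Ccl5, which draws T cells and monocytes, stood at 2207 and 2637 vpm in the WT mice and at 11038 and 28043 in the SLE.yaa mice. The groups did not overlap, and SLE.yaa 2 was the higher of its pair. The log2 difference was 2.86 ± 0.32 (SE, n = 2 and 2, limma adjusted p = 0.0016).

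Both the share of CD8 T cells with Ccl5 and the level within those cells were higher in the SLE.yaa mice. Cells with a value above 0 were 137 of 448 in WT 1, 30.6% (95% interval 26.3 to 35.1, exact Clopper-Pearson, counting error only, as for all intervals here). They were 33.9% in WT 2 (30.0 to 38), 55.3% in SLE.yaa 1 (49.4 to 61.1) and 89.1% in SLE.yaa 2 (85.2 to 92.2). The mean value in cells with Ccl5 was 29.3 and 32.6 in the WT mice and 98 and 128 in the SLE.yaa mice. In B cells, which should lack Ccl5, the share was 0.927%, 0.970%, 1.95% and 2.73% in the same order, at median depths of 3218, 3389, 4778 and 4518 UMIs against 5355.5, 5720, 6189 and 4270 in CD8 T cells. Among CD8 T cells with 2000 to 6000 UMIs the shares with Ccl5 were 26.1%, 27.2%, 64.6% and 94.1%. The values were adjusted for depth before deposit, so cells were not thinned further.

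Ccl3, a ligand that draws monocytes and T cells, was nearly absent from WT CD8 T cells. Its level was 1.10 and 1.26 vpm in WT against 53.2 and 127 in SLE.yaa, with no overlap, and it passed the filter through the SLE.yaa mice alone. The log2 difference was 3.06 ± 0.29 (limma adjusted p = 0.0006), and the cells with a value numbered 2 and 3 in WT against 25 and 36 in SLE.yaa. As shares these were 0.446%, 0.527%, 8.59% and 10.7%, against 0.326% or less in B cells of every mouse. The call held in all 11 alternative settings that could test it, and without either SLE.yaa mouse the gene could not pass the filter. A gene that passed this way had to differ, so the held calls are no separate support.

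Ccl4, a close relative of Ccl3, stood at 7.69 and 39.8 vpm in WT CD8 T cells and at 185 and 217 in those of SLE.yaa. The difference was 2.83 ± 0.36 on the log2 scale (limma adjusted p = 0.0032) with no overlap. The share of cells was 2.01% and 3.87% in WT against 13.4% and 22.5% in SLE.yaa, and in WT 2 a single cell held 75.8% of the summed value. Without the highest cell of each mouse the difference was 3.17. The calls of Ccl4 and Ccl5 in CD8 T cells were lost with no filter on low values (limma adjusted p = 0.070 and 0.062) and with a variance estimate robust to outlying genes (0.220 and 0.254).

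Xcl1 differed from these ligands in CD8 T cells. It stood at 47.3 and 64.1 vpm in WT and at 35.0 and 27.7 in SLE.yaa, so the groups did not overlap and the SLE.yaa mice were the lower. The log2 difference of -0.66 ± 0.18 was not called (limma adjusted p = 0.0875). The shares of cells were 10.9%, 12.5%, 8.25% and 6.80%.

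Other genes moved in the same CD8 T cells. Of the 4 listed NK markers 3 were tested and only Eomes rose, from 52.2 and 58.6 to 174 and 220, while Ncr1, which defines NK cells, was at 5.44 or less in every mouse. The plasma cell markers Jchain and Mzb1 rose, and the 4 listed plasma markers summed to 42.3 and 37.3 in WT against 452 and 147 in SLE.yaa. Cd4 rose from 4.95 and 5.44 to 28.7 and 57.5, and of the 8 monocyte markers, Ly6c2 and Ccr2, which memory CD8 T cells also express, rose. Cells with 2 or more markers of another lineage made up 15.2%, 13.7%, 32.6% and 49.4% of the type. Without them the differences were 3.08 for Ccl5, 3.74 for Ccl3 and 3.21 for Ccl4, each still called.

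Within SLE.yaa CD8 T cells, Ccl3 and Ccl4 were found in the same cells. Of the 25 Ccl3-positive cells in SLE.yaa 1, 76.0% also had Ccl4, against 7.52% of the Ccl3-negative cells. In SLE.yaa 2 it was 63.9% of 36 cells. Over all mice, 145 of 146 Ccl4-positive CD8 T cells held Ccl5. Ccl3-positive cells more often held Ifng, the gene of interferon-gamma (40.0% and 44.4% against 4.14% and 4.64% in SLE.yaa 1 and 2), and Eomes, a factor of effector and memory T cells (76.0% and 75.0% against 39.8% and 41.1%). They less often held Ly6c2 (24.0% and 33.3% against 69.2% and 64.9%). These shares over cells of 2 mice are descriptions with no test. Xcl1-positive CD8 T cells held Cxcr3, a receptor of activated and memory T cells, in 67.3%, 70.4%, 75.0% and 73.9% of cells, against 16.5%, 15.9%, 42.7% and 51.1% of the others.

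**Figure D2:**
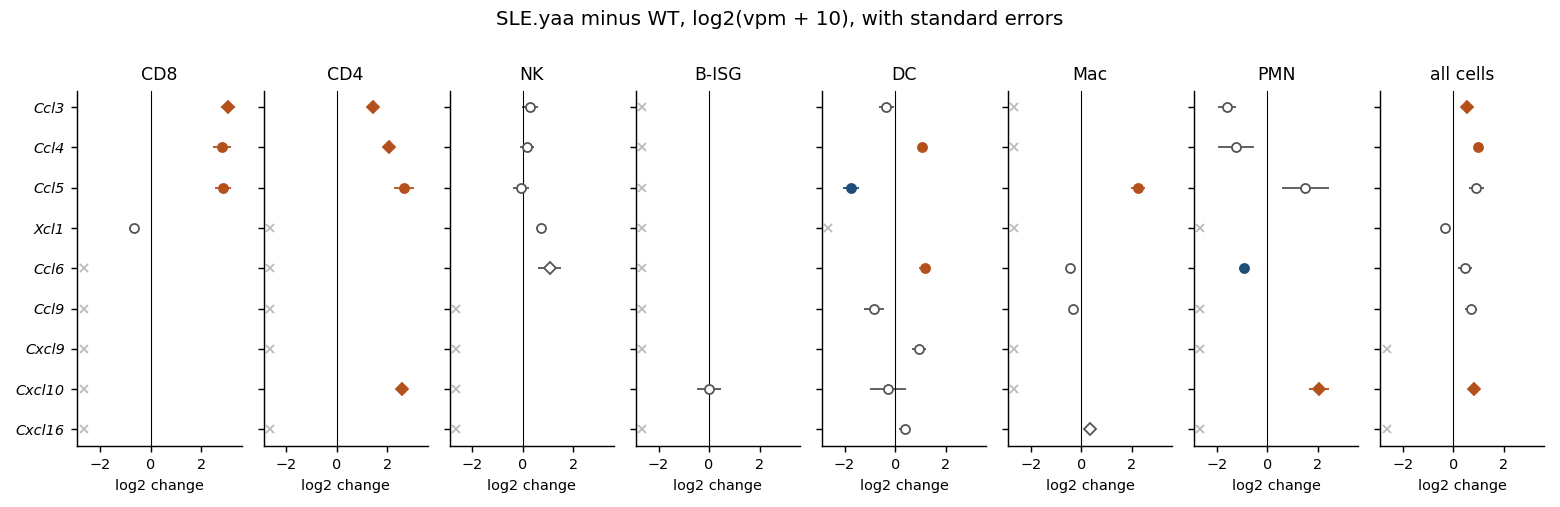
Log2 difference between SLE.yaa and WT (± SE) of each ligand in each tested type. Filled points were called (orange higher, blue lower), open points were tested and not called, diamonds passed the filter only through the SLE.yaa mice, and crosses at the left edge were not tested. Among the single types, CD8 and CD4 T cells hold 7 of the 11 points called higher, and the points called lower are Ccl5 in DC and Ccl6 in neutrophils. The panel of all cells together adds Ccl3, Ccl4 and Cxcl10 as called higher.

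Receptor clones gave a readout from separate libraries of the same cells. In the SLE.yaa mice, CD8 T cells of clones with at least 2 cells (34 in SLE.yaa 1, 38 in SLE.yaa 2) were compared within each mouse with cells that were alone in their clone (199 and 126). Of the 4 members tested, 3 were called higher in the expanded clones, where 1.51% of all genes tested were called, 0.676% higher in expanded clones. Ccl5 rose from 7592 to 28661 vpm in SLE.yaa 1 and from 21244 to 41729 in SLE.yaa 2. The log2 difference was 1.44 ± 0.14 (limma with mouse as a block, 2 mice, adjusted p = 1.2e-06).

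Ccl3 and Ccl4 followed the same direction in both mice. Ccl4 rose from 115 to 844 and from 186 to 812, a difference of 2.42 ± 0.18 (limma adjusted p = 2.81e-08). Ccl3 rose from 26.0 to 253 and from 177 to 356, a difference of 1.92 ± 0.30 (limma adjusted p = 0.000722). The share of cells with Ccl4 went from 9.05% to 41.2% and from 18.3% to 36.8%, although expanded cells were shallower, with medians of 4732.5 and 4196.5 UMIs against 6808 and 5055.

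Xcl1 in the expanded clones stood at 102 and 68.7, against 25.0 and 32.5 in single cells, and was not called (limma adjusted p = 0.0633). Its share of cells was 8.82% and 10.5% in expanded clones against 9.05% and 10.3%. The WT mice had only 3 and 4 CD8 T cells in expanded clones and entered no test. WT cells alone in their clone had Ccl5 in 28.6% and 33.2% of cells, below the 46.7% and 83.3% of such cells in SLE.yaa. The higher share in SLE.yaa was thus also present among cells seen alone in their clone. Clone size was counted in the captured cells only, so such a cell may belong to a larger clone.

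**Figure D3:**
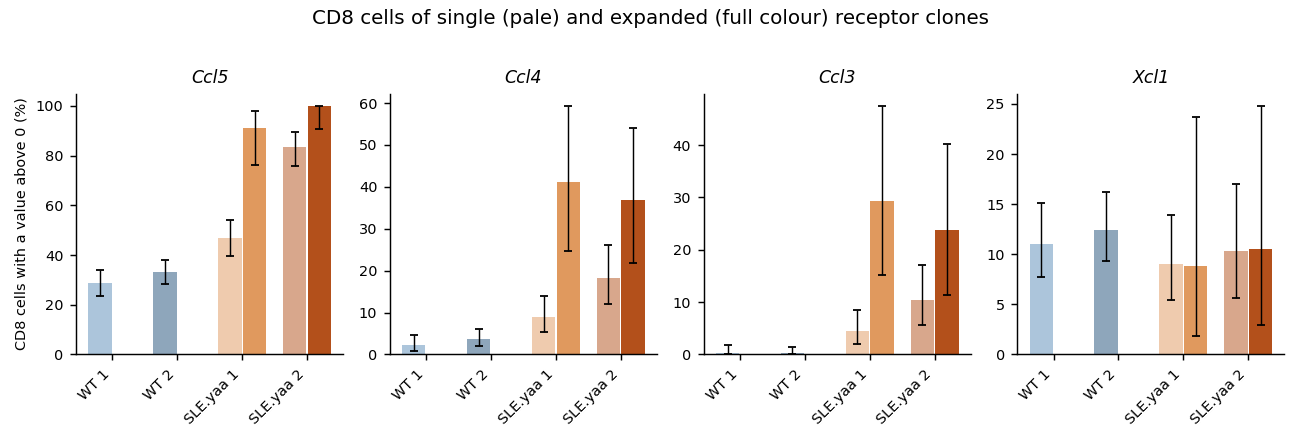
Share of CD8 T cells with a value above 0 (percent, with exact Clopper-Pearson 95% intervals) in cells alone in their clone (pale) and in clones of at least 2 cells (full), by mouse and ligand. WT cells of expanded clones, 3 and 4 in number, are not drawn. For Ccl3, Ccl4 and Ccl5 the expanded cells of both SLE.yaa mice lie above the single cells, with overlapping intervals for Ccl3 and Ccl4 in SLE.yaa 2, and for Xcl1 the intervals overlap in both mice.

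CD4 T cells of the SLE.yaa mice carried more Cxcl10 and Ccl5. Of the 4 members tested all 4 were called higher, but 3 of them passed the filter only through the SLE.yaa mice, and 28.1% of all genes tested in this type were called, 15.9% higher and 12.3% lower. Cxcl10, an interferon-inducible ligand of Cxcr3, stood at 3.84 and 2.21 vpm in WT and at 59.4 and 77.4 in SLE.yaa. The groups lay far apart and the SLE.yaa mice were alike. The log2 difference was 2.58 ± 0.16 (limma adjusted p = 1.68e-08). Cxcl10 passed the filter through the SLE.yaa mice alone and so had to differ. Its call held in all 11 alternatives that could test it, which is therefore no separate support. Without either SLE.yaa mouse it could not be tested.

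Cxcl10 was found in few cells. They numbered 5 and 2 in WT (0.627% and 0.240%) and 49 each in the SLE.yaa mice (7.72% and 8.91%). In CD8 T cells of the same mice, at 4270 to 6189 median UMIs against 3659.5 to 4407 in CD4 T cells, the shares were 0.223%, 0.176%, 1.37% and 0.592%. Cxcl10 did not pass the filter in CD8 T cells, and the difference between the changes of the 2 types was called (log2 CD8 minus CD4 -2.37, limma adjusted over all genes).

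Cxcl10-positive CD4 T cells of SLE.yaa are described here by other genes, beside the Cxcl10-negative ones and with no test. All of them held Cd3e, a chain of the T cell receptor complex. Nfkbia, an inhibitor and target of NF-kappaB, was present in 100% and 87.8% against 74.2% and 69.9%, and the NF-kappaB subunit Relb in 57.1% and 55.1% against 31.2% and 21.2%. Ifngr1, a chain of the interferon-gamma receptor, was less frequent, at 12.2% and 18.4% against 36.2% and 34.9%. Their median depth was 4412 and 5087 UMIs against 4276.5 and 3555. Ccl5 was present in 6.12% and 22.4% of them, against 19.5% and 25.2% of the others.

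Ccl5 in CD4 T cells stood at 140 and 51.1 vpm in WT and at 349 and 1032 in SLE.yaa, with no overlap but a wide spread within each pair. The log2 difference was 2.67 ± 0.39 (limma adjusted p = 0.0001). It was lost with the robust variance (limma adjusted p = 0.205). The share of cells was 4.14% and 3.24% in WT against 18.4% and 24.9% in SLE.yaa, also with no overlap.

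Ccl3 and Ccl4 were called in CD4 T cells on very few cells. Ccl3 was listed at 0 in both WT mice and at 15.6 and 18.5 vpm in SLE.yaa, from 5 and 11 cells. A single cell held 66.7% and 33.3% of those sums. Ccl4 stood at 0 and 0.315 in WT and at 20.5 and 49.2 in SLE.yaa, from 5 and 16 cells, with 83.1% and 34.8% in the highest cell. Neither gene passed the filter without the highest cell of each mouse, without either SLE.yaa mouse, within 2000 to 6000 UMIs, or without cells that held markers of another lineage. Such cells made up 16.8%, 12.6%, 27.9% and 27.6% of CD4 T cells, and the 10 macrophage markers summed to 9.79 and 4.10 in WT against 65.7 and 80.9 in SLE.yaa, of which Axl was called higher. The 4 NK markers summed to 6.29, 9.46, 11.8 and 7.04 with none tested, and of them Ncr1 was at 0 in every mouse. The 3 basophil or mast cell markers summed to 0.699, 0, 0.348 and 30.3 with none tested, so only SLE.yaa 2 stood out. Of the markers of the type itself, Cd3g, Cd3d, Cd3e and Cd4 were called higher. The 8 dendritic markers summed to 29.0, 29.3, 22.6 and 25.9, of which H2-DMb2 was called lower and Clec9a, Siglech and Cd209a were at 0 in every mouse. The 4 plasma cell markers summed to 59.8 and 57.7 in WT against 244 and 129 in SLE.yaa, with Jchain and Xbp1 called higher. Of the 8 monocyte markers Ccr2 and Nr4a1 were called higher, and all 4 B cell markers were called lower (368 and 349 against 178 and 231). The part of these other markers in the results of CD4 T cells was not tested, beyond the fit without cells with 2 or more other-lineage markers (H2-DMb2, Nr4a1 and Plac8 not counted), in which Cxcl10 (2.52) and Ccl5 (2.74) were still called.

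Expanded CD4 clones showed no call among the 5 members tested. Over WT 1 and both SLE.yaa mice, none of 8805 genes (0%) passed in limma with mouse as a block, and none of the 5 members had an unadjusted p under 0.05. The difference was 0.77 ± 0.39 for Ccl5 (limma adjusted p = 0.663) and 0.09 ± 0.53 for Cxcl10. Ccl5 was present in 29.2%, 21.3% and 28.4% of expanded cells in WT 1, SLE.yaa 1 and SLE.yaa 2, against 3.21%, 15.2% and 23.3% of single cells. Without SLE.yaa 2 the Ccl5 difference was 1.43 and was called (limma adjusted p = 0.000279). With clones of at least 3 cells, which only the 2 SLE.yaa mice could give, Ccl5 (0.74), Ccl4 (-1.30) and Cxcl10 (-0.96) were called by limma. Of these, only Ccl4 went the same way in both mice, and with clones of at least 2 cells it did not. From single to expanded cells, Cxcl10 went from 54.8 to 82.2 vpm in SLE.yaa 1 and from 104 to 11.1 in SLE.yaa 2. Ccl5 went from 262 to 812 in SLE.yaa 1 and from 969 to 891 in SLE.yaa 2. The share of all genes called for clones of at least 3 cells is not given here. With clones of at least 2 cells, Ccl4 fell from 36.9 to 1.24 vpm in SLE.yaa 1 and rose from 28.6 to 54.8 in SLE.yaa 2. In that setting 4 and 6 single cells and 1 and 5 expanded cells of SLE.yaa 1 and SLE.yaa 2 held Ccl4.

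NK cells had the highest mean Ccl5 level over the 4 mice, although CD8 T cells of SLE.yaa 2 were higher, and no member was called in them. Of the 5 members tested, Xcl1 and Ccl6 had an unadjusted p under 0.05 in limma. The share of all genes under that unadjusted level is not given here, and 0.0967% of all genes tested were called. Ccl5 stood at 18943, 17847, 14498 and 20707 vpm over the mice, and every NK cell held it. The SLE.yaa mice bracketed the WT mice, with a difference of -0.09 ± 0.31. Ccl3 (106, 95.2, 81.1 and 187) and Ccl4 (212, 184, 162 and 304) overlapped in the same way, SLE.yaa 2 being the highest and SLE.yaa 1 the lowest.

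In NK cells the groups did not overlap for Xcl1 and Ccl6, a split that has a two-sided exact permutation p of 0.333 with 2 mice against 2. Ccl6, at 4.52, 0, 12.8 and 17.5 vpm, passed the filter through SLE.yaa alone and was not called (limma adjusted p = 0.794). Xcl1 stood at 332 and 335 vpm in WT and at 623 and 503 in SLE.yaa, and the share of cells was 30.3%, 31.6%, 52.0% and 41.3%. The difference of 0.73 ± 0.20 was not called (limma adjusted p = 0.473). NK cells were few, 119 and 117 in WT against 50 and 46 in SLE.yaa. T cell markers moved with the genotype in them: Cd3g, Cd3d and Cd3e summed to 40.6 and 65.7 in WT against 358 and 374 in SLE.yaa, and their part in the result was not tested.

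The change in CD8 T cells differed from that in NK cells for 4 of the 5 members tested, where 0.686% of all genes tested did. The difference of changes (CD8 minus NK, log2) was 2.95 for Ccl5 (limma adjusted p = 0.0002), 2.78 for Ccl3 (limma adjusted p = 0.0017), 2.66 for Ccl4 (limma adjusted p = 0.0158) and -1.39 for Xcl1 (limma adjusted p = 0.0180). Between CD8 and CD4 T cells, where 13.5% of genes differed, 3 of 5 members did. Ccl3 changed more in CD8 T cells (1.63, limma adjusted p = 0.0001), Cxcl10 (-2.37) and Xcl1 (-1.78, limma adjusted p = 0.0007) less. Ccl3 passed the filter in both types, and Cxcl10 in CD4 T cells, through the SLE.yaa mice alone. Xcl1 was not tested in CD4 T cells, where it stood at 2.10, 0.631, 4.87 and 30.8 vpm. The highest cell there held 58.6% of the SLE.yaa 2 sum. Ccl5 differed by 0.19 ± 0.25 (limma adjusted p = 0.732) and Ccl4 by 0.76 ± 0.31 (limma adjusted p = 0.126), so neither was called.

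In the type labelled DC, Ccl4 and Ccl6 were higher and Ccl5 lower in SLE.yaa. Of 8 members tested, 2 were called higher and 1 lower, and 12.1% of all genes tested were called, 8.36% higher and 3.77% lower. Ccl4 stood at 72.3 and 73.1 vpm in WT and at 166 and 163 in SLE.yaa, 1.08 ± 0.18 (limma adjusted p = 0.0064). In WT it came from 3 cells in each mouse, and the highest cell held 83.3% and 61.9% of the sums. In SLE.yaa 51 and 61 cells held it. Ccl6, a Ccr1 ligand of myeloid cells, stood at 124 and 90.5 in WT and at 231 and 270 in SLE.yaa, 1.17 ± 0.20 (limma adjusted p = 0.0071). Ccl5 stood at 3410 and 1629 in WT and at 845 and 574 in SLE.yaa, -1.74 ± 0.32 (limma adjusted p = 0.0093). None of the 3 overlapped between the groups.

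These calls moved with the macrophage markers of the annotated type. All 10 macrophage markers were called higher in it, from sums of 892 and 1974 vpm in WT to 16566 and 12772 in SLE.yaa. Of the 8 dendritic markers, 4 were lower: Zbtb46, Flt3, Cd209a and H2-DMb2. The 4 haemoglobin genes were higher, from 0 and 10.4 to 1405 and 2542. Cells numbered 77 and 74 in WT against 260 and 290 in SLE.yaa. Without the cells that held 3 or more macrophage markers, Ccl4 changed by -1.89 (limma adjusted p = 0.124), Ccl6 by -0.43 (limma adjusted p = 0.738) and Ccl5 by -0.29 (limma adjusted p = 0.886). The calls of Ccl5 and Ccl6 were also lost without cells with 2 or more other-lineage markers (limma adjusted p = 0.181 and 0.0693) and with no filter on low values (0.107 and 0.0613).

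**Figure D4:**
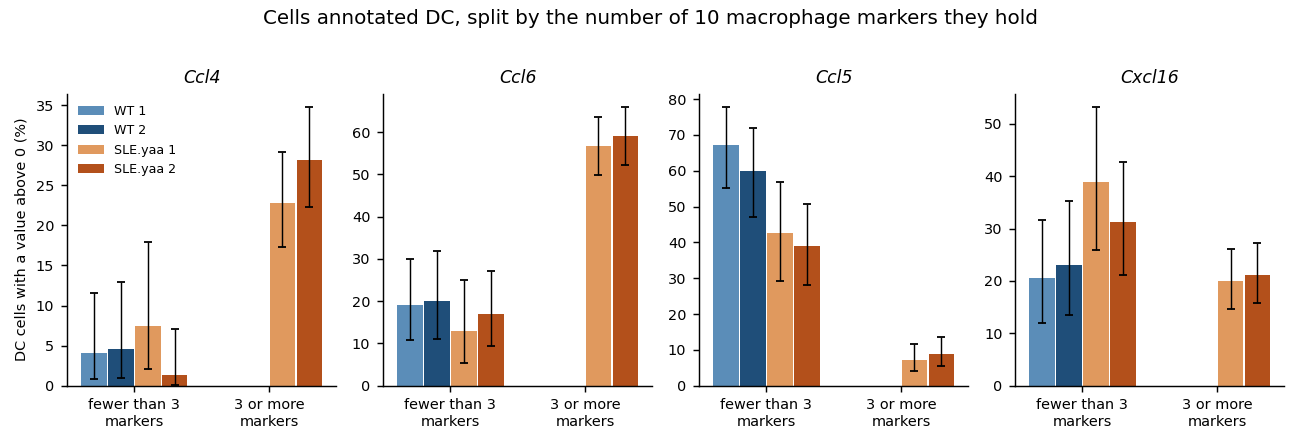
Share of cells labelled DC with a value above 0 (percent, with exact Clopper-Pearson 95% intervals) for Ccl4, Ccl6, Ccl5 and Cxcl16, split into cells with fewer than 3 and with 3 or more of 10 macrophage markers. The WT cells with 3 or more, 4 and 9 in number, are not drawn. In SLE.yaa, Ccl4 and Ccl6 lie higher and Ccl5 lower in the cells with 3 or more markers.

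The plot of the split type gives the share of cells with each ligand. Ccl4 was present in 22.8% and 28.2% of SLE.yaa cells with 3 or more macrophage markers and in 7.41% and 1.30% of those with fewer. WT cells with fewer markers held it in 4.11% and 4.62%. Ccl6 was present in 56.8% and 59.2% of SLE.yaa cells with 3 or more and in 13.0% and 16.9% of those with fewer, against 19.2% and 20% in WT. Both ligands were thus most frequent in the SLE.yaa cells with 3 or more macrophage markers. In SLE.yaa cells with fewer, the Ccl6 shares lay below those of WT and the Ccl4 shares on both sides, with overlapping intervals. The mean Ccl4 value per cell there was 0.167 and 0.0130, against 0.329 and 0.323 in WT, from 4, 1, 3 and 3 cells. Ccl5 ran the other way: 7.28% and 8.92% with 3 or more, 42.6% and 39.0% with fewer, and 67.1% and 60% in WT cells with fewer. Cells at the threshold were 20 and 45 with exactly 3 markers and 2 and 5 with exactly 2 in the SLE.yaa mice. The split is a range of a marker count and not a cell type.

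Cxcl16 was not called in DC. It stood at 124 and 97.5 vpm in WT and at 162 and 131 in SLE.yaa, with a difference of 0.37 ± 0.21 (limma adjusted p = 0.301) and shares of 20.8%, 20.3%, 23.8% and 23.8%. Among SLE.yaa cells with fewer than 3 macrophage markers the share was 38.9% and 31.2%, and with 3 or more 19.9% and 21.1%. Cxcl16-positive cells held Relb in 81.2%, 73.3%, 43.5% and 40.6% of cells, against 49.2%, 47.5%, 23.7% and 23.1% of the others. Relb, an NF-kappaB subunit, was thus more frequent with Cxcl16 in each mouse. Cxcl9, an interferon-gamma-inducible ligand of Cxcr3, stood at 21.1 and 27.8 in WT and at 47.6 and 65.7 in SLE.yaa, with no overlap, and just missed the call (0.94 ± 0.27, limma adjusted p = 0.0516). The shares of cells with Cxcl9 were alike, at 6.49%, 5.41%, 7.69% and 6.55%, from 5, 4, 20 and 19 cells. Ccl3 (87.4, 48.7, 62.9 and 38.4) and Cxcl10 (3.01, 52.2, 3.59 and 30.7) overlapped between the groups. Ccl9 (48.2, 13.9, 8.98 and 12.8) did not overlap, the SLE.yaa mice being the lower, and was not called (limma adjusted p = 0.235). Within SLE.yaa, Ccl3 was found in 18.9% and 13.1% of cells with 3 or more macrophage markers and in 3.70% and 2.60% of those with fewer.

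In the monocytes labelled Mac, Ccl6 and Ccl9 were the main ligands, and neither was called. Of 4 members tested 1 was called higher, and 5.69% of all genes tested were called, 3.92% higher and 1.77% lower. Ccl6 stood at 1150 and 1022 vpm in WT and at 862 and 742 in SLE.yaa, with no overlap (-0.43 ± 0.13, limma adjusted p = 0.0805) and shares of 91.5%, 91.7%, 82.9% and 79.4%. Ccl9 stood at 170 and 244 in WT and at 171 and 153 in SLE.yaa, which overlapped. Both ligands were higher in cells that held Ly6c2, a marker of classical monocytes: the mean value per cell of Ccl6 was 6.23, 6.75, 6.99 and 4.89 with Ly6c2 and 3.30, 2.90, 2.70 and 2.36 without. For Ccl9 it was 1.25, 1.71, 1.66 and 1.41 with and 0.218, 0.632, 0.477 and 0.412 without. Cells with Ly6c2 numbered 169 of 375 and 63 of 169 in WT and 99 of 550 and 234 of 1485 in SLE.yaa. Cells with Ly6c2 were deeper as well, for example 6158 against 3351 median UMIs in WT 1.

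The called member in Mac was Ccl5, and it rested on few cells. It stood at 15.3 and 5.59 vpm in WT and at 114 and 61.2 in SLE.yaa (2.24 ± 0.28, limma adjusted p = 0.0031), from 9, 3, 15 and 51 cells. In SLE.yaa 1 a single cell held 88.1% of the sum. The call was lost without the highest cell of each mouse (limma adjusted p = 0.116), with 2000 to 6000 UMIs (0.594) and with no filter (0.054), and the sign turned without cells that held other-lineage markers (-0.15, limma adjusted p = 0.816). Those cells made up 19.2%, 21.3%, 42.0% and 34.5% of Mac. The 4 NK markers summed to 0, 2.79, 0.451 and 0.724 vpm in Mac, with Klrb1c at 0 in every mouse. Cd3g, Cd3d and Cd3e summed to 33.8, 5.59, 40.6 and 23.5. Among other markers Jchain, S100a8 and Itgax were called higher and Cd209a lower. Of the 8 monocyte markers Nr4a1 and Treml4 were called higher and Ccr2, Lyz2 and Ly6c2 lower. The part of these markers was not tested, beyond the fit without cells that held other-lineage markers. The change of Ccl6 differed between Mac and DC (-1.60, limma adjusted p = 0.0013, where 9.19% of genes differed), as did that of Ccl5 (3.99).

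Neutrophils of the SLE.yaa mice had less Ccl6, and 2 of the 5 members tested were called, 1 in each direction, where 1.9% of all genes tested were called, 1.24% higher and 0.66% lower. Ccl6 stood at 2519 and 3305 vpm in WT and at 1661 and 1367 in SLE.yaa, with shares of 76.5%, 85.6%, 66.2% and 59.8%. The groups did not overlap, and the log2 difference was -0.93 ± 0.17 (limma adjusted p = 0.0252). The call depended on depth and on single mice. SLE.yaa neutrophils were deeper (2368.5 and 2712.5 median UMIs against 1639.5 and 1547), and with 2000 to 6000 UMIs the difference was 0.24 (limma adjusted p = 0.590). It was also lost without WT 2 (limma adjusted p = 0.128), SLE.yaa 1 (0.316) or SLE.yaa 2 (0.667). Other markers moved in these cells: the 8 monocyte markers summed to 4840 and 3046 in WT against 6675 and 10378 in SLE.yaa, with Plac8 and Ly6c2 called higher, Jchain was called higher and the B cell marker Ms4a1 lower. Their part in the results was not tested.

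Cxcl10 in neutrophils stood at 2.91 and 0 vpm in WT and at 20.8 and 61.9 in SLE.yaa, and it passed the filter through SLE.yaa alone (2.05 ± 0.39, limma adjusted p = 0.0252). Only 1, 0, 8 and 5 cells held it, and the highest cell held 38.9% and 88.6% of the SLE.yaa sums. Without the highest cell it could not be tested. Ccl3 stood at 55.3 and 26.5 in WT and at 2.31 and 11.3 in SLE.yaa and just missed the call (-1.59 ± 0.37, limma adjusted p = 0.0537), from 4, 3, 1 and 10 cells. Ccl4 (13.1, 181, 10.4 and 28.1) and Ccl5 (18.9, 4.07, 3.47 and 235) each had 1 mouse far above the others. Between Mac and neutrophils, where 5.23% of genes differed, the changes of Cxcl10 (-3.17, limma adjusted p = 0.0002) and Ccl3 (2.17, limma adjusted p = 0.0019) differed. Neither was tested in Mac alone. There Cxcl10 stood at 48.5, 6.98, 5.87 and 3.26 vpm, with 72.6% of the WT 1 sum in the highest cell. Ccl3 in Mac stood at 1.33, 2.79, 11.3 and 5.25.

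B cells held little of any ligand, and no member passed the filter in B cells or early B cells, where 4.1% and 0.437% of all genes tested were called. Cxcl10 stood at 0, 0.156, 4.70 and 4.37 vpm in B cells, from 0, 2, 13 and 17 cells. Ccl5 stood at 2.74, 5.86, 8.44 and 16.1. In B-ISG cells, where 0.88% of all genes tested were called, Cxcl10 was the only member tested: it stood at 38.5, 11.4, 53.4 and 5.94 and overlapped (-0.02 ± 0.48). Its unadjusted p in limma was not under 0.05 either. The changes of 4 members differed between B and CD4 T cells (Cxcl10 -2.05, Ccl5 -2.05, Ccl4 -1.57 and Ccl3 -1.31, each called by limma), where 31.9% of genes differed. Cxcl10, Ccl4 and Ccl3 entered this comparison through CD4 T cells of the SLE.yaa mice alone. With low levels in B cells, where the pseudocount flattens changes, these differences largely repeat the changes in CD4 T cells and are no separate result.

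Basophils, which give no test, held the same ligands in all mice. Ccl6 stood at 12366, 11830, 11424 and 8338 vpm and Ccl9 at 2170, 2375, 1740 and 1747. Of the 26 cells, 25 held Ccl3, 21 Ccl4, 26 Ccl6 and 23 Ccl9. Ccl5, Xcl1, Cxcl9, Cxcl10 and Cxcl16 were at 0. Fcer1a, a chain of the IgE receptor, was present at 656, 699, 803 and 1042, and the cells numbered 6, 6, 5 and 9.

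Over all cells together, 7 members were tested and 3 called higher, where 7.85% of all genes tested were called, 6% higher and 1.85% lower. In such a sum, more cells of a type and more RNA per cell cannot be told apart. Ccl4 stood at 7.89, 13.9, 30.3 and 31.5 vpm (0.98 ± 0.15, limma adjusted p = 0.0159). Cxcl10 stood at 5.88, 1.71, 13.2 and 15.3 (0.83 ± 0.16, limma adjusted p = 0.0300), and Ccl3 at 6.84, 4.94, 11.3 and 15.4 (0.55 ± 0.12, limma adjusted p = 0.0499). Cxcl10 and Ccl3 passed the filter only through SLE.yaa. Ccl4 kept its call in all 15 alternatives, whereas Ccl3 lost its call in 5 of 9 and Cxcl10 in 4 of 12. With equal weight for each annotated type, Ccl3 turned to -0.29.

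**Figure D5:**
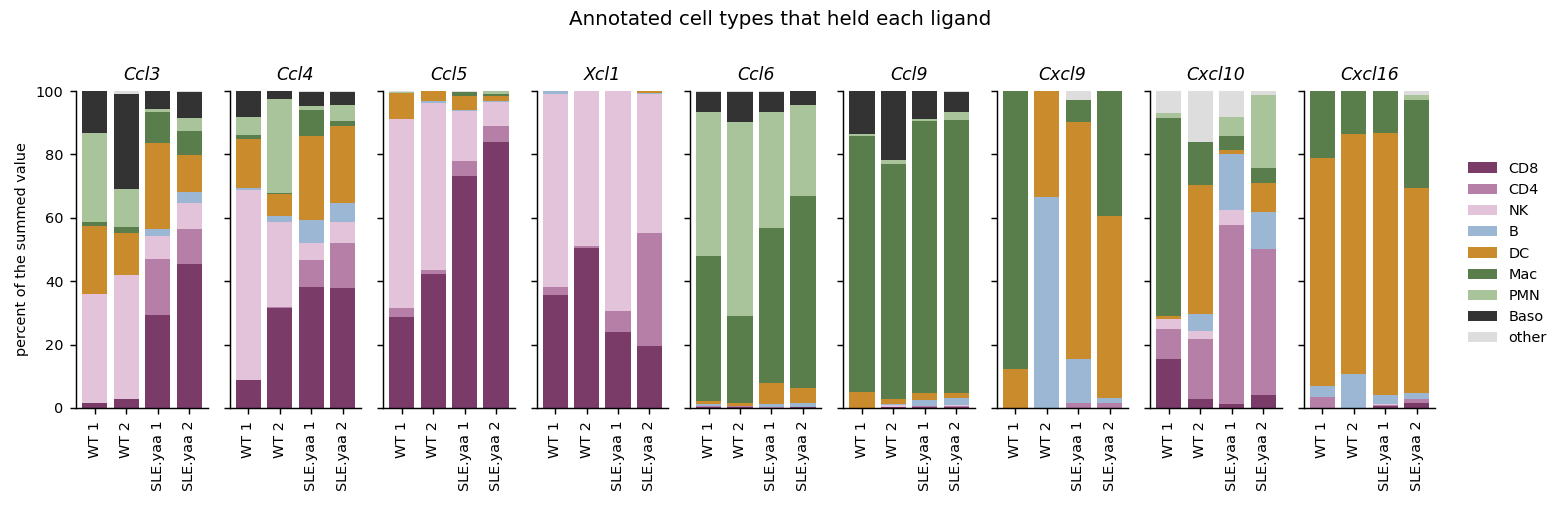
Share of the summed value of each ligand (percent) held by each annotated type, 1 bar per mouse. CD8 T cells widen from 28.6% and 42.3% of Ccl5 in WT to 73.2% and 83.8% in SLE.yaa, and CD4 T cells from 9.4% and 18.9% of Cxcl10 to 56.4% and 45.8%.

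The cells that carried each transcript were not the same in both groups. Ccl5 came from NK cells for 59.7% and 52.9% in WT and for 15.8% and 7.70% in SLE.yaa, as CD8 T cells took 73.2% and 83.8%. For Ccl3 CD8 T cells went from 1.47% and 2.80% to 29.5% and 45.5%, and NK cells from 34.6% and 39.3% to 7.36% and 8.31%. DC gave 15.3% and 6.95% of Ccl4 in WT and 26.7% and 24.2% in SLE.yaa. Ccl9 stayed with Mac in every mouse, between 74.2% and 86.4%, and Cxcl16 with DC, between 64.8% and 82.6%. Xcl1 came from NK cells for 61.0%, 48.8%, 69.5% and 43.9%. These shares depend on how many cells of each type were captured, and no test was made of them.

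Other genes of the system were read from lists of receptors, inducers and further chemokines. In CD4 T cells, 6 of 9 receptors tested were higher and 1 lower, where 15.9% of all genes tested were higher and 12.3% lower. The median log2 difference was 0.85 against -0.01 for all genes. Genes that passed the filter only through SLE.yaa, such as Ccr8 here and Ifng below, had to differ, so these counts and medians are descriptions. Cxcr3 rose from 30.4 and 20.5 to 228 and 216 vpm and Ccr8 from 6.29 and 5.68 to 77.5 and 76.1, while Ccr7, which holds naive T cells in lymphoid tissue, fell from 379 and 358 to 127 and 69.5. In CD8 T cells, 4 of 9 receptors were higher, Cx3cr1, Ccr2 and Cxcr3 among them, and Ccr9 was lower, median 0.47 against -0.03, where 2.5% of all genes were higher and 0.652% lower. Cxcr3 rose there from 73.1 and 67.8 to 158 and 215.

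Cxcr3 was also higher in B cells, from 2.55 and 0.625 to 49.3 and 52.9 vpm, where 2 of 5 receptors were called higher (Ccr6 was the other), 4.1% of all genes were called, and the median was -0.09 against -0.01 for all genes. B-ISG cells had Ccr6 and Cxcr3 higher and Ccr7 lower among 6 tested, median 0.11 against 0.01, where 0.88% of all genes were called. In DC, Cx3cr1 and Ccr3 were higher and Ccrl2, Ccr2 and Ccr7 lower among 9 tested, median -0.66 against 0.06, where 8.36% of all genes were higher and 3.77% lower. In Mac, Ccr2, which draws classical monocytes from the marrow, fell from 398 and 351 to 162 and 134 and was the only one of 4 called, median 0.24 against 0.03, where 5.69% of all genes were called. No receptor was called in NK cells (8 tested), neutrophils (7) or early B cells (4), where 0.0967%, 1.9% and 0.437% of all genes were called.

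Among 21 listed genes that induce, process or repress these ligands, CD4 T cells had 11 of 20 tested higher and 2 lower, median 0.49 against -0.01, where 15.9% of all genes were higher and 12.3% lower. Ifng rose there from 1.05 and 0.631 to 44.1 and 50.1 vpm. Nfkbia rose from 250 and 265 to 628 and 689 and Relb from 42.6 and 39.4 to 101 and 73.9. Ifngr2, a chain of the interferon-gamma receptor, fell from 36.3 and 37.8 to 10.4 and 4.84. In CD8 T cells Eomes (1.65), Ifng (1.62) and Tbx21 (0.85) were higher of 20 tested, median 0.24 against -0.03, where 2.5% of all genes were higher. Eomes and Tbx21 encode T-box factors of effector T cells. In neutrophils Irf7, Nfkbia and Tnf were higher of 18 tested (median 0.39 against 0.03, 1.24% of all genes higher), in Mac Klf2 and Nfkbia of 17 (0.14 against 0.03, 3.92% of all genes higher), and in B cells 3 of 19, Irf1 and Tbx21 among them, with Jak2 lower (0.06 against -0.01, 4.1% of all genes called). In DC 3 of 19 were higher, Irf7 and Klf2 among them, and Relb and Jak2 lower (-0.18 against 0.06, 8.36% of all genes higher and 3.77% lower).

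The further chemokines were mostly absent. Of 28 listed, 12 were in the table, and at most 1 was tested in any type but DC, with no call. In DC, 6 were tested, 4 were higher (Ppbp, Pf4, Ccl8 and Cxcl14, all listed at 0 in WT) and 1 lower. The 4 passed the filter only through SLE.yaa and had to differ, and 8.36% of all genes tested in DC were higher. Ppbp and Pf4 are platelet genes. The neutrophil attractant Cxcl2 stood at 30.1 and 45.3 vpm in WT and at 0.898 and 0 in SLE.yaa.

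Across the 36 points of 9 types and 4 mice, which share libraries and depth, the pattern of each member was compared with all other genes by Pearson's r of the log2 levels, as a description. Ccl3 was most like Ccl4 (0.914), then Id2 (0.850) and Osbpl3 (0.836). Ccl5 was most like Cd7 (0.935), Klrd1 (0.901) and Serpinb6b (0.900). Xcl1 was nearest to Sytl3 (0.980) and Klrc1 (0.978), Cxcl16 to Ffar4 (0.982), Cxcl9 to F11r (0.928) and Ccl9 to Dock1 (0.963). Ccl6 was nearest to Pla2g7, and Cxcl10 had no close match, its nearest gene being Eml2 at 0.549. Between members, the highest values after Ccl3 with Ccl4 were 0.884 for Cxcl9 with Cxcl16 and 0.816 for Ccl4 with Ccl5, and the lowest was -0.306 for Ccl6 with Xcl1.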

How the data were processed

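Expression, T cell receptor and B cell receptor libraries of 4 spleens were read. Per the submitters' processing notes, Cell Ranger 5.0.0, Seurat 4.0.0 and GRCm38 (mm10) were used. The deposited expression values were natural log values of 1 plus a whole number (whole within 1.64e-11), with sums of 2663 to 6382 per cell, so the authors had adjusted them for depth by a step not given in the sources used here. The deposited UMI counts, percent of mitochondrial UMIs and cell type names per cell came from the authors, and the treatment of doublets was not stated. Of the rows, 15 had no gene name and held 0.0440% of all values and were left out, and 56 symbols held a dot.

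Logs were undone, averaged per mouse and type, scaled to a sum of 1000000 and by TMM factors (edgeR 4.0.16), and tested with limma 3.58.1 (trend, two-sided, Benjamini-Hochberg over all genes tested) in R 4.3.3 on log2(value + 10), which suits values that are not counts. Tables and intervals used Python 3.11.15, numpy 2.4.6, pandas 2.3.3 and scipy 1.17.1. The steps were tested on simulated data. Differences between types used within-mouse differences, 29 tests in 5 pairs, and clones used mouse as a block.

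The members and lists were chosen with earlier results of these data known. All members were named, from the lists the genes that passed, and for likeness the 3 nearest genes. Replicates were numbered in accession order. The labels name separate mice, and p-values measure the spread between these mice. Results were recomputed under those of 18 other settings, and of 1 more chosen after seeing the data, that applied to them and could be fitted.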

Additional observations from a re-analysis of the deposited data

Results flagged for a closer look

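The change between SLE.yaa and WT differed between paired cell types for 15 of 29 tests, by limma on within-mouse differences of log2 levels adjusted over all genes. The share of all genes that differed was 13.5% for CD8 against CD4 T cells and 0.686% for CD8 T against NK cells. It was 9.19% for Mac against DC, 5.23% for Mac against neutrophils and 31.9% for B against CD4 T cells. CD8 T cells against CD4 T cells gave -1.78 for Xcl1, -2.37 for Cxcl10 and 1.63 for Ccl3. CD8 T cells against NK cells gave -1.39 for Xcl1, 2.95 for Ccl5, 2.78 for Ccl3 and 2.66 for Ccl4. In these pairs Xcl1 ran opposite to Ccl3.

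Among myeloid cells, Mac against DC gave 3.99 for Ccl5 and -1.60 for Ccl6, beside the macrophage markers that set the SLE.yaa cells labelled DC apart. Mac against neutrophils gave -3.17 for Cxcl10, which 14 neutrophils in all carried, and 2.17 for Ccl3, and neither was tested in Mac alone. B cells against CD4 T cells gave -2.05 for Cxcl10, -2.05 for Ccl5, -1.31 for Ccl3 and -1.57 for Ccl4, 4 ligands that stayed below the filter in B cells. Of these, Cxcl10, Ccl3 and Ccl4 entered through CD4 T cells of the SLE.yaa mice alone, so the differences largely repeat the changes in CD4 T cells. Without SLE.yaa 2 none of the B against CD4 differences was called.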

How the results depend on the processing

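No paired analysis was possible because the replicate numbers follow accession order and pair no mice. Depth, 2 mice a group and few cells per type limited every test, and for each change below the cause was not tested unless fewer mice, cells or genes made it. NK cells and neutrophils could not be fitted without cells that held other-lineage markers, nor CD8 clones of at least 3 cells. Of the other settings of single values, 479 kept direction and side of the threshold, 33 fell below it, 47 passed it and 42 turned in sign. Some values moved although limma with 1 mouse left in a group takes that mouse to vary like the others.

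The share of all genes called is not given for most other settings, so the counts of members here and below are descriptions. Without scaling, the number of all genes called went from 671 to 1539 over all cells and from 449 to 484 in Mac. With sum scaling it was 425 in Mac. The number of members called moved as follows. Over all cells it was 3, and it was 1 with a pseudocount of 1, 6 with no scaling between mice, 1 without other-lineage cells, 1 with equal weight per type and 1 to 5 with a mouse left out (5 without WT 1). B cells had 2 with no filter on low values. CD4 T cells had 4, and 2 with 2000 to 6000 UMIs, 2 without other-lineage cells, 2 without the highest cell and 1 to 4 with a mouse left out (1 without either SLE.yaa mouse). CD8 T cells had 3, and 1 with no filter and 1 with robust variance. DC had 3, and 1 with no filter, 1 without cells of 3 or more macrophage markers and 3 to 6 with a mouse left out (6 without WT 2). Mac had 1, and 0 with no filter, 2 with sum scaling, 2 with no scaling, 0 with 2000 to 6000 UMIs, 0 without other-lineage cells and 1 to 2 with a mouse left out. Neutrophils had 2, and 1 with 2000 to 6000 UMIs, 1 without the highest cell and 0 to 4 with a mouse left out (0 without either SLE.yaa mouse).

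Differences between types moved in number too. CD8 against NK had 4 and 2 with a pseudocount of 1. With a mouse left out, B against CD4 had 0 to 4 of 4, CD8 against CD4 1 to 5 of 3, Mac against DC 2 to 5 of 2, and Mac against neutrophils 1 to 3 of 2. CD4 clones had 0, and 0 to 1 with a mouse left out and 3 for clones of at least 3 cells: Ccl5 (0.74), Ccl4 (-1.30) and Cxcl10 (-0.96). In that last setting Ccl5 and Cxcl10 went opposite ways in SLE.yaa 1 and SLE.yaa 2.

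Signs turned in values that had mostly not been called. With equal weight per type over all cells, Xcl1 was 0.48, Ccl9 -0.30, Ccl6 -0.35 and Ccl3 -0.29. Cxcl10 in B-ISG was 0.045 with a pseudocount of 50 and 0.22 with no scaling. In DC, Ccl3 was 1.96 with 2000 to 6000 UMIs, 1.92 without other-lineage cells and 0.54 without the highest cell, Cxcl16 was -0.62 with 2000 to 6000 UMIs, and without cells of 3 or more macrophage markers Ccl6 was -0.43 and Ccl4 -1.89. Ccl5 in Mac was -0.15 without other-lineage cells. In NK cells Ccl5 was 0.070 with no scaling and 0.024 without the highest cell, and Ccl4 -0.27 without the highest cell. In neutrophils with 2000 to 6000 UMIs, Ccl4 was 0.94 and Ccl6 0.24. With a pseudocount of 1, the difference of changes was -1.42 for Ccl4 (CD8 minus CD4), 0.26 for Cxcl16 and 0.82 for Ccl4 (Mac minus DC), and -0.30 for Cxcl16 (Mac minus neutrophils).

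With a mouse left out, single values ranged as follows: Cxcl10 in B-ISG -1.01 to 0.98, in DC Ccl3 -0.72 to 0.014 and Cxcl10 -1.39 to 0.52, in NK cells Ccl5 -0.35 to 0.17, Ccl3 -0.28 to 0.83 and Ccl4 -0.27 to 0.60, and Ccl4 in neutrophils -2.77 to 0.27. The difference of changes ranged from -0.57 to 0.97 for Ccl5 (CD8 minus CD4), from -1.76 to 3.26 for Ccl5 (Mac minus neutrophils), and for Mac minus DC from -1.78 to 1.16 for Cxcl10, -0.37 to 1.42 for Ccl9, -0.13 to 0.11 for Cxcl16 and -0.94 to 0.57 for Ccl4. In CD4 clones Cxcl10 ranged from -0.55 to 0.98, Ccl3 from -0.63 to 0.23 and Ccl4 from -0.66 to 0.37.

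Without scaling, the median log2 difference of all genes was 0.21 in B, 0.26 in B-ISG, 0.14 in early B, 0.16 in CD4 T cells and 0.16 over all cells, and with sum scaling -0.14 in neutrophils and -0.12 in Mac. The share of called genes that were higher went, without scaling, from 72.7% to 96.7% in B cells, 68.7% to 95.5% in B-ISG, 82.4% to 95.9% in early B, 56.4% to 80.9% in CD4 and 79.3% to 92.4% in CD8 T cells, 65.3% to 89.6% in neutrophils and 76.5% to 95.3% over all cells. With sum scaling it went to 58.3% in B-ISG, from 68.9% to 54.6% in DC, from 68.8% to 39.3% in Mac, from 100% to 75% in NK cells and to 36.5% in neutrophils.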
